A study of Homo sapiens with 18 samples.

Results

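Cytoplasmic RNA of MDA-MB-231 cells carrying the SH3 hairpin against fibrillarin was compared with that of cells carrying a scramble control, SC. MDA-MB-231 is an established human line of triple-negative breast carcinoma. The comparison used 6 of the 18 libraries of the series, 3 SH3 and 3 SC, chosen by their labels alone, and all 12710 genes with enough reads were tested. Both groups had been exposed for 48 h to lentivirus made from the pLKO.1 hairpin vector, selected for 96 h with 1 µg/ml puromycin and treated for 5 min with 100 µg/ml cycloheximide before lysis. From each lysate 10 µg of RNA was kept as the cytoplasmic input, and ribosome footprints came from the rest. Cells with another hairpin, SH2, were handled in the same way, and their 3 input libraries are used to show where SH3 differs. The labels name the hairpins SH2 and SH3 while the protocols speak of KD1 and KD2, and which is which was not given in the sources used here. SC was read as the scramble control. Only 1 cell line was used, and nothing states that the replicates came from separate cultures, so the p-values measure only the spread between these samples.

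Fibrillarin, encoded by FBL, is the enzyme of the box C/D snoRNPs, nucleolar particles of a small RNA and a few core proteins. The small RNA pairs with ribosomal RNA and fibrillarin then methylates the ribose of the chosen nucleotide, and the U3 particle, built on the same core proteins, takes part in the early cleavages that release small-subunit rRNA. Dividing cells need a steady supply of new ribosomes. The mRNAs of ribosomal proteins begin with a run of pyrimidines, the TOP motif, which ties their translation to growth signals.

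The targeted gene was examined first. Levels are CPM, counts scaled to a common library total with TMM factors, in the order of replicates 1 to 3. FBL stood at 395, 349 and 421 CPM in SC and at 3.36, 4.15 and 2.95 CPM in SH3. The groups lay far apart, and 0.898% of the SC mean remained. The log2 change was -6.80, SE 0.48, adjusted p = 2.16e-07 (edgeR quasi-likelihood test with Benjamini-Hochberg adjustment, as for every adjusted p below). In SH2, FBL stood at 1.26, 4.52 and 11.2 CPM, and SH3 minus SH2 was -0.72 on the log2 scale (adjusted p = 0.242). FBL footprints changed by -5.52 (adjusted p = 1.55e-06).

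The 6 libraries held 23469830 to 26541640 counts and 14566 to 14887 genes with at least 1 count. Replicates differed by more than counting noise (chi-square per degree of freedom 11.5 to 58.7), with a common biological coefficient of variation of 11.6%. SC replicate 1 stood apart: mitochondrially encoded mRNAs took 10.7% of its counts against 6.38% and 6.31% in the other SC libraries. All 6 markers expected in this line were present, from CAV1 at 65.1 to 180.5 CPM to VIM at 4081 to 6175 CPM over the libraries. CAV1 and LGALS1 lay at 131.5 to 180.5 and 719 to 779 CPM in SC. In SH3 they lay lower, at 65.1 to 80.4 and 328 to 390 CPM. EGFR lay higher in SH3, at 581 to 646 CPM against 174 to 225 CPM. The VIM, CD44 and AXL groups overlapped. The hormone receptor genes ESR1 and PGR had at most 1 and 2 counts in any library, the epithelial cadherin CDH1 1 to 11, the T cell gene CD3E at most 1, and the leukocyte gene PTPRC 4 to 36. The myeloid genes CD14 and CD68 had 54 to 80 and 111 to 229 counts. COL1A1, the collagen I chain listed as a fibroblast marker, stood at 25.9 to 42.4 CPM in SC and at 61.7 to 77.4 CPM in SH3, and its part in the results was not tested. GATA3 and EPCAM, genes of luminal epithelium, were present at 7.62 to 9.27 and 4.92 to 9.15 CPM. In bulk RNA, fewer cells of a kind and less RNA per cell cannot be told apart.

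Most genes tested passed the threshold, which is the background for every count below. A gene is referred to as called where its adjusted p over all 12710 genes was under 0.05. Of these genes, 6732 were called (53%), 3529 of them higher (27.8%) and 3203 lower (25.2%) in SH3. The median log2 change of all genes was 0.03, with quartiles of -0.37 and 0.40. Changes of at least 1 on the log2 scale were rarer, with 665 called genes higher and 958 lower. Groups without overlap were common. Every SH3 library lay below every SC library in 29.6% of all genes tested, and above in 33.3%. Of the 6732 called genes, 6556 had groups that did not overlap.

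**Figure D1:**
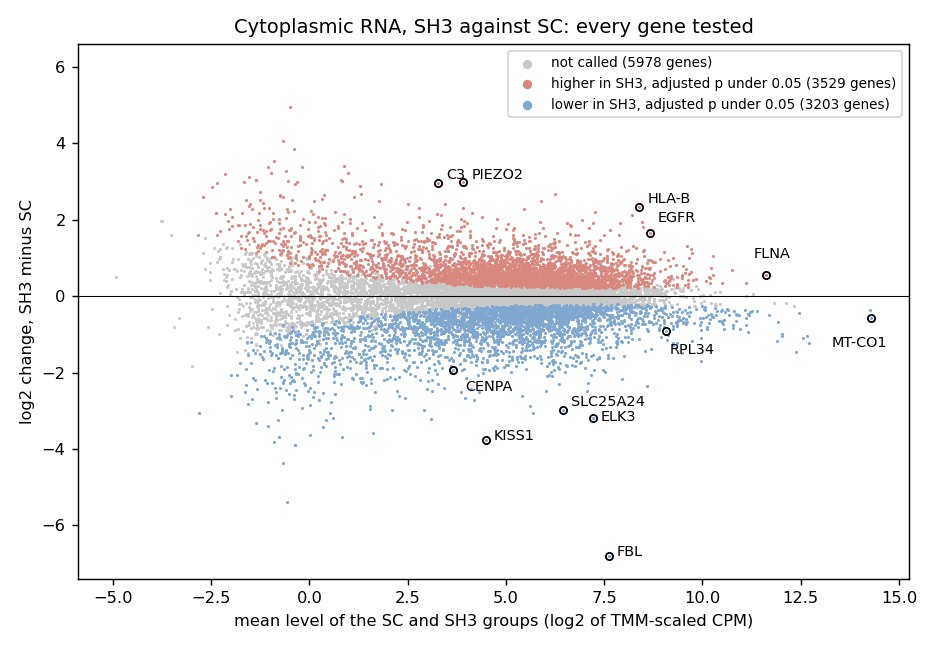
Each point is 1 of the 12710 genes tested; the x axis is the mean level of the SC and SH3 groups (log2 of TMM-scaled CPM) and the y axis the fitted log2 change, SH3 minus SC. Colours mark the 3529 genes called higher and the 3203 called lower, circles mark named genes, and FBL lies at -6.80; values of genes with few counts in a group depend on the prior count of the fit.

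Next to FBL, the 11 lowest changes among genes with at least 5 CPM and no overlap between groups belonged to genes of different roles. KISS1, which encodes a secreted peptide known as a metastasis suppressor, stood at 62.4, 29.8 and 34.2 CPM in SC and at 3.56, 4.40 and 1.38 CPM in SH3 (log2 change -3.77, SE 0.41, adjusted p = 7.08e-06). ELK3, an ETS-family transcription factor, stood at 298, 236 and 272 CPM in SC and at 29.6, 32.3 and 26.97 CPM in SH3 (-3.18, SE 0.13, adjusted p = 3.22e-09). That every SH3 library lay below every SC library was a condition of the choice. SPCS3, a subunit of the signal peptidase, fell from 91.97 ± 4.59 to 11.1 ± 1.32 CPM (SD, n = 3 each; -3.05), and PBK, a mitotic kinase, from 85.5 ± 15.3 to 11.7 ± 1.21 CPM (-2.87). The ion transporter SLC4A4, CPED1, the mitochondrial carrier SLC25A24, the inflammasome sensor NLRP3, the proton pump subunit ATP6V0A4, the ubiquitin ligase NEURL1B and the vitamin D hydroxylase CYP24A1 had log2 changes from -3.59 to -2.87.

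Among the 12 highest changes by the same rule were genes of the membrane, of adhesion and of defence. PIEZO2, a mechanically gated ion channel, stood at 2.12, 4.24 and 3.86 CPM in SC and at 30.96, 22.7 and 27.01 CPM in SH3 (log2 change 2.98, SE 0.21, adjusted p = 2.28e-07). C3, the central complement protein, stood at 2.41, 2.23 and 1.93 CPM in SC and at 27.96, 9.44 and 13.98 CPM in SH3 (2.97, SE 0.35, adjusted p = 1.33e-05). No overlap between groups was a condition of the choice here too, and for C3 the SH3 libraries were spread widely. CYP1B1, a cytochrome P450 induced through the aryl hydrocarbon receptor, rose from 20.5 ± 10.8 to 132 ± 17.5 CPM (2.68), and BIN1, a membrane-bending adaptor, from 17.8 ± 5.69 to 101 ± 10.1 CPM (2.50). GAS7, ADGRF4, the integrin ITGA10, the sorting receptor SORL1, HLA-B, CYP2S1, the desmosomal plakin PPL and PBXIP1 had log2 changes from 2.93 down to 2.28.

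Footprint counts reflect both the amount of an mRNA and the ribosomes on it. Over the 10345 genes tested in footprints, 35.9% were called, 16.9% higher and 19.0% lower in SH3. Of the 23 genes just named with FBL left out, 20 had enough footprints, and all 20 were called there in the direction of their RNA. KISS1 footprints changed by -4.12 on the log2 scale, SLC25A24 footprints by -3.71 and ITGA10 footprints by 3.57. Against the same SC libraries, 22 of the 23 were called in the same direction in SH2, where 61.4% of all genes were called. SH3 and SH2 differed in 6 of the 23, against 39.3% of all genes.

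**Figure D2:**
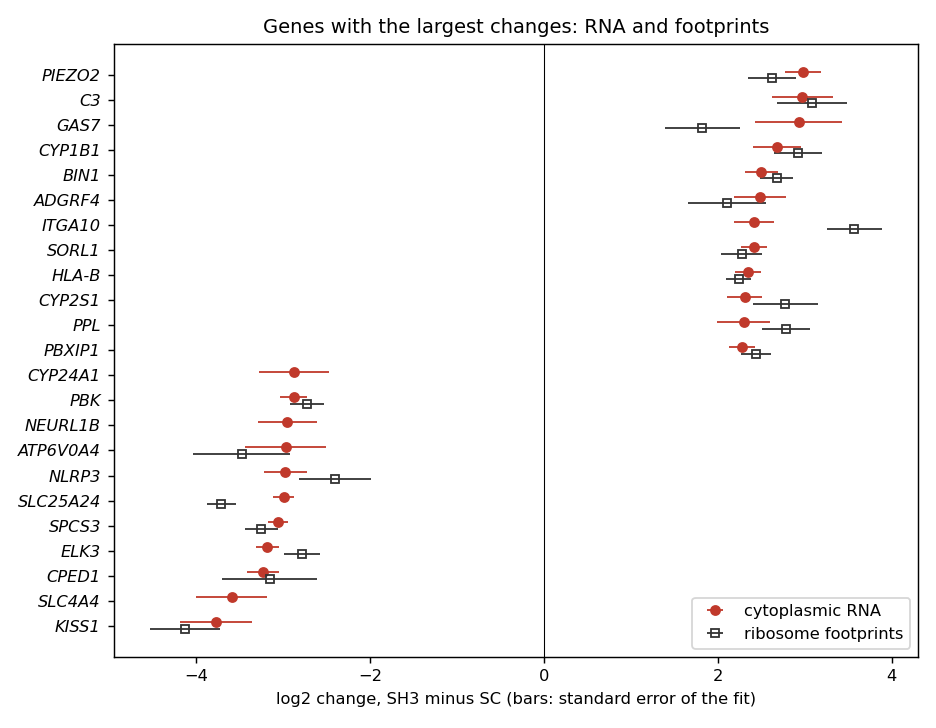
Log2 change, SH3 minus SC, of the 23 genes in cytoplasmic RNA (circles) and, for the 20 tested, in ribosome footprints (squares); bars are the standard error of the fit. In each of the 20 genes both marks lie on the same side of 0, from KISS1 at -3.77 and -4.12 to PIEZO2 at 2.98 and 2.62.

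Abundant mRNAs with large differences of mean CPM included mitochondrially encoded ones, for which SC replicate 1 was the highest library, and genes of the cytoskeleton. MT-CO1, a cytochrome c oxidase subunit, stood at 32532, 18939 and 20331 CPM in SC and at 17842, 13900.0 and 16589 CPM in SH3 (log2 change -0.57, SE 0.19, adjusted p = 0.0198). FLNA, the actin cross-linker filamin A, stood at 2513, 2626 and 2510.1 CPM in SC and at 3595, 3724 and 3802 CPM in SH3 (0.54, SE 0.09, adjusted p = 0.000205). Both genes were picked among called genes whose groups did not overlap. MT-CO1 was not called without SC replicate 1 (-0.30, adjusted p = 0.0980). MYH9, the heavy chain of non-muscle myosin, rose from 806 ± 39.9 to 1669 ± 129.8 CPM.

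**Figure D3:**
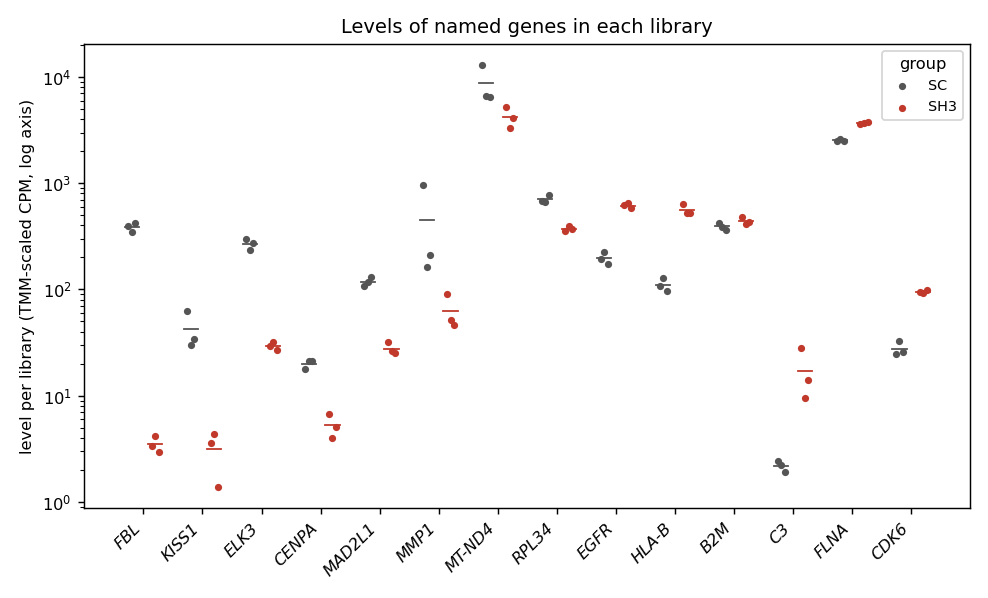
Level of 14 genes in each of the 3 SC and 3 SH3 libraries (TMM-scaled CPM, log axis); each point is a library and each line a group mean. FBL lies at 349 to 421 CPM in SC and at 2.95 to 4.15 CPM in SH3, the B2M groups overlap, and SC replicate 1 lies above the other SC libraries for MMP1 and MT-ND4.

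All 34 genes of mitosis tested were called lower in SH3, against 25.2% of all genes, with a median log2 change of -1.50. Their summed level was 4274 to 6226 CPM in the SC libraries and 1651 to 2404 CPM in the SH3 libraries. MAD2L1, a spindle checkpoint protein, stood at 107, 116 and 129.9 CPM in SC and at 31.7, 26.3 and 25.3 CPM in SH3 (-2.08, SE 0.11, adjusted p = 4.88e-08). KIF20A, a kinesin of cytokinesis, stood at 94.1, 186 and 157 CPM in SC and at 46.9, 24.6 and 39.3 CPM in SH3 (-1.98, SE 0.25, adjusted p = 2.33e-05). The groups did not overlap in either, and SC replicate 1 was the lowest SC library for both. UBE2C, the ubiquitin-conjugating enzyme of the anaphase-promoting complex, fell from 242 ± 31.5 to 63.4 ± 9.46 CPM (-1.93). In footprints 29 of the 34 were called lower, against 19.0% of all genes, with a median of -1.25. In SH2, 33 of 34 were called lower than SC, against 30.4% of all genes. SH3 and SH2 differed in 6 of the 34, against 39.3% of all genes.

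Promoters of mitotic genes are known for a cell cycle homology element, here searched as TTTGAA, and for CCAAT boxes. Both were searched on both strands in RefSeq windows (GRCh38.p14) of 300 bases, from 250 before to 50 after each start. TTTGAA stood in 20 of 28 mitotic windows (71.4%), in 15.4% of all 27305 windows and in 9.77% of the 10300 windows of tested genes. CCAAT stood in 23 of the 28 (82.1%) and in 35.7% of all windows. The next lines show the 150 bases before the start for the centromeric histone CENPA, the spindle pole protein ASPM and cyclin B2, CCNB2, to show how these letters sit in promoters of genes that fell; capitals mark TTTGAA and CCAAT on either strand, and no matches overlap. These 3 genes were chosen after their values were seen, among genes called lower that hold TTTGAA in these bases. Its presence in these lines was thus fixed by the choice.
CENPA (chr2:26785906-26786055, + strand): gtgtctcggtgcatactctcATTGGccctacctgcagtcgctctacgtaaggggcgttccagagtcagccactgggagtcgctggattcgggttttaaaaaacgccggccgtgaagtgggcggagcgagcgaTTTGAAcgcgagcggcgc
ASPM (chr1:197146670-197146819, - strand): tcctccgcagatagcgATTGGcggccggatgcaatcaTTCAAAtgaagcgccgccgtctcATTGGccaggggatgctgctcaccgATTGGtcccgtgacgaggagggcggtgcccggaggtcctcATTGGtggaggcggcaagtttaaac
CCNB2 (chr15:59104996-59105145, + strand): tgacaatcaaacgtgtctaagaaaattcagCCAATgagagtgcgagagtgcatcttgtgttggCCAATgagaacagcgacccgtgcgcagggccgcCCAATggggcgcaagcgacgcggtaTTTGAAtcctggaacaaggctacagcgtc
CENPA stood at 17.8, 21.4 and 21.01 CPM in SC and at 6.76, 3.99 and 5.06 CPM in SH3 (-1.93), ASPM fell from 205 ± 44.7 to 55.7 ± 15.4 CPM (-1.88), and CCNB2 from 104 ± 24.8 to 29.2 ± 6.35 CPM (-1.83). Of the 428 tested genes with both motifs in the window, 39.7% were called lower and 17.5% higher, against 24.9% and 28.3% of all tested genes with a window. A match is a description of the letters, not a site shown to act.

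Replication-dependent histones, whose mRNAs accumulate in S phase, were called lower in 32 of 36 genes and higher in 0. The shares of all genes were 25.2% and 27.8%. The median log2 change of the 36 was -1.35. H3C3 stood at 486, 729.9 and 725 CPM in SC and at 128, 108 and 147 CPM in SH3 (-2.34, SE 0.23, adjusted p = 3.50e-06). H2BC14 stood at 18.1, 40.8 and 36.5 CPM in SC and at 4.16, 4.78 and 5.59 CPM in SH3 (-2.71, SE 0.34, adjusted p = 2.14e-05). In both genes every SH3 library lay below every SC library. In footprints, 32 of 35 histone genes were called lower, against 19.0% of all genes. Histone genes are near-identical copies, so the value of a single gene is uncertain where reads were shared.

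Of 35 DNA replication genes, 24 were called lower and 0 higher (1 higher without SC replicate 2), against 25.2% and 27.8% of all genes. The median log2 change of the 35 was -0.75. All 5 genes of nucleotide supply were called lower, with a median of -1.68. RRM2, a subunit of ribonucleotide reductase, stood at 225, 217 and 228 CPM in SC and at 56.3, 39.1 and 44.1 CPM in SH3 (-2.26, SE 0.13, adjusted p = 5.39e-08). Thymidylate synthase, TYMS, fell from 291 ± 38.4 to 73.4 ± 9.59 CPM. The direct test between the hairpins called 23 of the 35 higher in SH3 than in SH2, against 20.4% of all genes, and 0 lower. In SH2, 33 of 35 were called lower than SC, against 30.4% of all genes, with a median of -1.15.

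Many replication genes are known targets of E2F factors. The E2F-like letters TTTNNCGC, searched on both strands, stood in 19 of 30 windows of the replication genes (63.3%), in 6.90% of all windows and in 2 of the 28 mitotic windows, while TTTGAA stood in 1 of the 30. The next lines show the 150 bases before the start of GINS2, of the replicative helicase, and POLE2, of DNA polymerase epsilon. Capitals mark TTTNNCGC on either strand. Both genes were chosen after their values were seen, among genes called lower that hold TTTNNCGC in these bases. Its presence in these lines was thus fixed by the choice.
GINS2 (chr16:85688955-85689104, - strand): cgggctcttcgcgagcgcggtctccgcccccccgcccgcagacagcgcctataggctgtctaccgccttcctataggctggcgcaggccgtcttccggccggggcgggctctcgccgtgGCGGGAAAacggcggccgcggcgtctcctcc
POLE2 (chr14:49688215-49688364, - strand): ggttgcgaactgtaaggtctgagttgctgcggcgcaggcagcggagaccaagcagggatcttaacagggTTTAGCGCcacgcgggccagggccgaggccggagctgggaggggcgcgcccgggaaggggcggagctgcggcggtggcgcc
GINS2 stood at 22.9, 26.002 and 28.2 CPM in SC and at 12.1, 10.9 and 12.8 CPM in SH3 (-1.11, SE 0.16). POLE2 stood at 42.9, 54.1 and 48.2 CPM in SC and at 24.7, 22.7 and 22.8 CPM in SH3 (-1.05, SE 0.12), above its SH2 level by 1.17 on the log2 scale (adjusted p = 1.03e-05). Of the 1093 tested genes with TTTNNCGC, 26.3% were called lower and 27.7% higher, near the shares of all tested genes with a window.

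Of 18 regulators of entry into S phase, 11 were called lower and 3 higher, against 25.2% and 27.8% of all genes. Cyclin E2, CCNE2, stood at 36.3, 44.4 and 43.2 CPM in SC and at 9.72, 7.84 and 8.89 CPM in SH3 (-2.23, SE 0.13, adjusted p = 8.16e-08). CDK6, a kinase of G1, stood at 24.6, 32.4 and 25.5 CPM in SC and at 95.6, 91.7 and 97.7 CPM in SH3 (1.79, SE 0.11, adjusted p = 1.01e-07). Neither gene's groups overlapped. The kinase inhibitor gene CDKN1B also rose, from 15.4 ± 1.24 to 40.99 ± 2.31 CPM, as did MYC, from 169 ± 12.1 to 294 ± 30.8 CPM, while the transcription factor E2F2 and the inhibitor CDKN2C fell by 1.80 and 1.34 on the log2 scale.

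**Figure D4:**
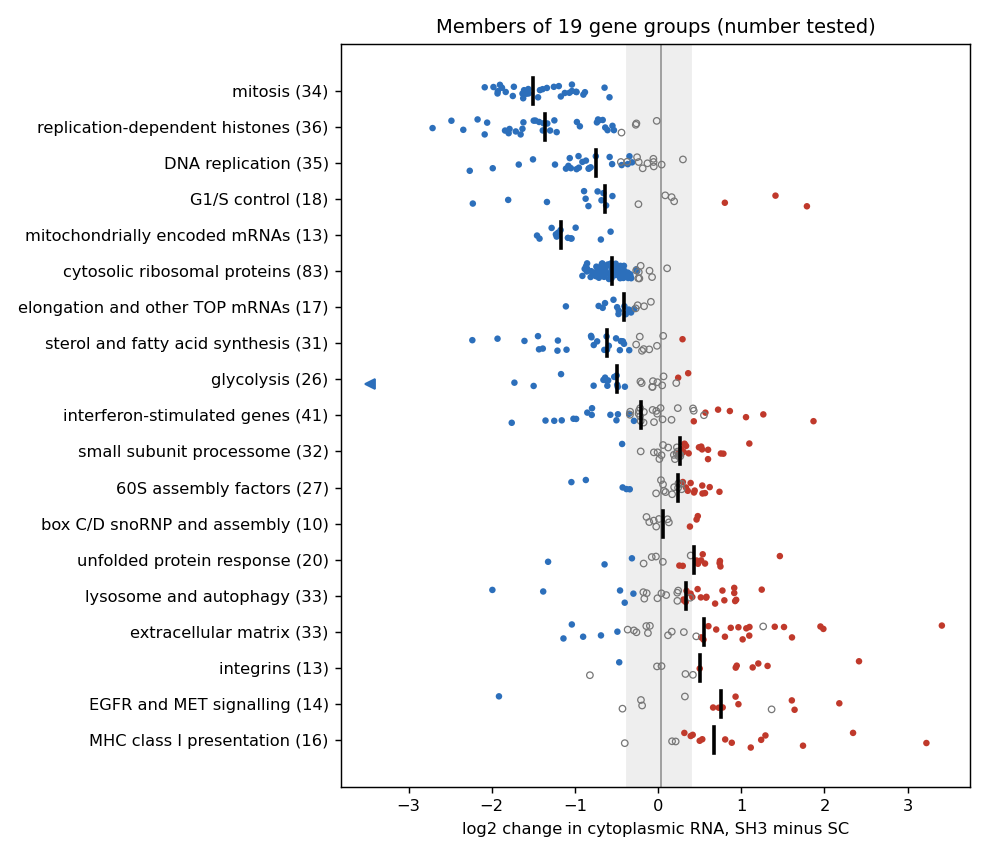
Log2 change in cytoplasmic RNA, SH3 minus SC, of every tested member of 19 gene groups; filled points are called (blue lower, red higher), open points are not, black bars are group medians, the grey band spans the quartiles of all genes (-0.37 to 0.40), and the triangle is CA9 at its bound. All 34 mitotic genes lie below 0 around a median of -1.50, and 13 of 16 MHC class I genes are called higher.

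Ribosomal protein mRNAs were lower as a group. Of 83 cytosolic ribosomal protein genes, 75 were called lower and 0 higher, against 25.2% and 27.8% of all genes. The log2 changes of the 83 had a median of -0.56 and a range of -0.91 to 0.11. Together they took 8.80% to 9.97% of counts in the SC libraries and 6.23% to 7.29% in the SH3 libraries. RPL34, of the large subunit, stood at 683, 659.9 and 768 CPM in SC and at 356, 396 and 371 CPM in SH3 (-0.91, SE 0.09, adjusted p = 4.20e-06). RPL37A and RPL31 fell by 0.88 and 0.87 on the log2 scale. The 8 not called were RPS14, FAU, RPL11, RPL12, RPL19, RPL22L1, RPL24 and RPL26L1. Ribosomal protein genes have many pseudogenes, and how shared reads were counted was not given in the sources used here.

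Of 17 elongation factors and other mRNAs known to have a TOP start, 13 were called lower and 0 higher. The shares of all genes were 25.2% and 27.8%. TPT1, the translationally controlled tumour protein, stood at 1395, 1250.1 and 1449 CPM in SC and at 645, 635 and 619 CPM in SH3 (-1.11, SE 0.09, adjusted p = 6.86e-07). EEF1A1, the elongation factor that delivers tRNA, stood at 21621, 19839.7 and 24365 CPM in SC and at 15363, 18898 and 17275 CPM in SH3 (-0.35, SE 0.11, adjusted p = 0.0141). The groups did not overlap in either gene, and the EEF1A1 change was not called without SC replicate 3 (-0.27, adjusted p = 0.0694).

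A TOP start was taken as C at the first transcribed base followed by at least 4 bases that are C or T. It stood in 44 of 67 ribosomal protein windows (65.7%) and in 4.04% of all windows. Of the 553 tested genes with a TOP start, ribosomal protein genes among them, 31.8% were called lower and 21.3% higher. The shares of all tested genes with a window were 24.9% and 28.3%. The next lines give 10 bases before the start and 15 from it, with the pyrimidine run in capitals, for the ribosomal proteins and TOP mRNAs named above and for FBL, whose start in RefSeq has the same form.
FBL (chr19:39846365-39846389, - strand): cgcctgcgctCTTTTCCacgtgcga
RPL34 (chr4:108620566-108620590, + strand): cttttttcttCCTCTTCCggggacg
RPL37A (chr2:216498834-216498858, + strand): gcgtctcttcCTTTCTgggctcgga
RPL31 (chr2:101002279-101002303, + strand): ccttcgcgctCTTCCTTTCCaactt
TPT1 (chr13:45341169-45341193, - strand): ctgagtcggcCTTTTCCgcccgctc
EEF1A1 (chr6:73521018-73521042, - strand): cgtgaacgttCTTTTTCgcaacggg
Footprints of these mRNAs were also measured. Of 82 ribosomal protein genes, 19 were called lower and 5 higher in footprints, against 19.0% and 16.9% of all genes, with a median log2 change of -0.08. TPT1 footprints changed by -0.07 (adjusted p = 0.671) and EEF1A1 footprints by 0.15 (adjusted p = 0.511). The initiation factor EIF4B fell by 0.71 in RNA and rose by 0.55 in footprints (adjusted p = 0.00419). Whether the RNA and footprint changes differ was not tested. In SH2, 78 of the 83 RNAs were called lower than SC, against 30.4% of all genes. Between the hairpins, 10 were called higher and 0 lower in SH3 than in SH2, against 20.4% and 18.9% of all genes.

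Among 10 other proteins of the box C/D snoRNP and its assembly, 3 were called higher and 0 lower (1 lower without SC replicate 1), against 27.8% and 25.2% of all genes. Of the 10, 5 were called higher and 1 lower in SH3 than in SH2, against 20.4% and 18.9% of all genes. NOP56, a core protein that binds beside fibrillarin, stood at 292, 305 and 325 CPM in SC and at 367, 428 and 407 CPM in SH3 (0.38, SE 0.09, adjusted p = 0.00307). The groups did not overlap. The assembly factors NUFIP1 and RUVBL1 rose by 0.48 and 0.46 and were also higher than in SH2 (adjusted p = 0.0174 and 0.0386). The remaining core proteins NOP58 and SNU13 had log2 changes of -0.02 (adjusted p = 0.889) and 0.13 (adjusted p = 0.229). In the box H/ACA snoRNP, which guides pseudouridylation, the synthase DKC1 rose by 0.54, while NAF1, NOP10 and NHP2 fell by 0.51, 0.34 and 0.29. The NHP2 change was not called without SC replicate 3, SH3 replicate 1 or SH3 replicate 3, or with plain totals.

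Factors that assemble ribosomal subunits were called in both directions. Over all genes, 27.8% were called higher and 25.2% lower. Of 32 genes of the small subunit processome, 16 were called higher and 1 lower, with 7 higher without SH3 replicate 2 and 9 without SH3 replicate 3. LTV1, an export factor of the small subunit, stood at 14.7, 26.5 and 21.3 CPM in SC and at 40.9, 46.2 and 46.7 CPM in SH3 (1.10, SE 0.17, adjusted p = 0.000123). Of 27 assembly factors of the 60S subunit, 11 were higher and 5 lower, with 5 and 6 higher without SH3 replicate 2 and 3, and 3 lower without SC replicate 3. RRP1 rose by 0.74 and MAK16 fell by 1.04, both of 60S assembly. Of 20 genes of RNA polymerase I and the nucleolus, 6 were higher and 2 lower (1 lower without SC replicate 3, SH3 replicate 1 or SH3 replicate 3): the largest polymerase subunit POLR1A rose from 191 ± 1.56 to 282 ± 11.9 CPM, and the subunit POLR1F fell from 34.7 ± 1.09 to 19.5 ± 1.09 CPM.

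All 13 mitochondrially encoded mRNAs were called lower, with a median log2 change of -1.17. They took 10.7%, 6.38% and 6.31% of the counts in SC and 5.08%, 3.63% and 4.41% in SH3, so that SC replicate 1 was the highest and no groups overlapped. MT-ND2, a subunit of complex I, stood at 11479, 5927 and 5904 CPM in SC and at 3255, 2384 and 2861 CPM in SH3 (-1.46, SE 0.22, adjusted p = 0.000106). Without SC replicate 1 the median was -0.76 and 12 of 13 were called, MT-CO1 being the exception. MT-CO1 was also not called without SH3 replicate 2 (adjusted p = 0.0666). In footprints 4 of the 13 were called lower, against 19.0% of all genes. Of 49 nuclear genes of the respiratory chain, 21 were called lower and 6 higher, against 25.2% and 27.8% of all genes. Without SC replicate 3, 11 were lower, and 10 were when libraries were scaled by plain totals. The complex IV genes COX7C and COX6C rose by 0.96 and fell by 0.59.

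Genes of sterol and fatty acid synthesis, which are controlled by SREBP factors, were called lower in 23 of 31 and higher in 1. The shares of all genes were 25.2% and 27.8%. The median log2 change of the 31 was -0.61. In footprints 21 of the 31 were called lower and 0 higher, against 19.0% and 16.9% of all genes. INSIG1, a sterol-regulated anchor of SREBP in the endoplasmic reticulum, stood at 44.4, 43.6 and 35.1 CPM in SC and at 10.8, 12.3 and 9.16 CPM in SH3 (-1.93, SE 0.14, adjusted p = 2.85e-07). Its groups did not overlap. In SH2, INSIG1 changed by 0.34 (adjusted p = 0.0330), and SH3 minus SH2 was -2.27 (adjusted p = 1.01e-07). All 6 genes of sterol uptake and regulation were called lower in SH3 than in SH2, against 18.9% of all genes. Of the 20 sterol synthesis genes, 1 was called lower and 2 higher in SH3 than in SH2, against 18.9% and 20.4% of all genes. The median of the whole list was also below 0 in SH2, at -0.41. There 18 of 31 were called lower than SC and 5 higher, against 30.4% and 31.1% of all genes. SCD, a fatty acid desaturase, fell from 198 ± 6.25 to 65.1 ± 6.48 CPM, and MVK of the mevalonate pathway rose by 0.29, a change not called when any 1 of the 6 libraries was left out.

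Of 26 genes of glycolysis and the hypoxia response, 15 were called lower and 2, VEGFA and PFKM, higher. The shares of all genes were 25.2% lower and 27.8% higher. The median of the 26 was -0.49. No gene was called higher without SC replicate 1, SH3 replicate 1 or SH3 replicate 2, and 1 was without SC replicate 2, SC replicate 3 or SH3 replicate 3. PFKM (0.24) also lost its call with DESeq2 size factors, with DESeq2 and without a filter on low counts. The same held for TMM without the 10 most abundant genes and for only the groups compared. In SH3, 13 of the 26 were called lower than in SH2, against 18.9% of all genes. PDK1, a pyruvate dehydrogenase kinase, fell from 21.2 ± 3.27 to 7.52 ± 0.212 CPM (-1.50), and the aldolase ALDOC from 6.07 ± 1.23 to 1.82 ± 0.633 CPM (-1.73). In SH2, ALDOC changed by -0.16 (adjusted p = 0.545). CA9, a carbonic anhydrase induced by hypoxia, had 17, 32 and 50 counts in SC and 0, 2 and 0 in SH3, which is at least 11.03-fold lower against a floor of 3 counts per library.

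Genes of MHC class I presentation, which display peptides to T cells, were called higher in 13 of 16 and lower in 0, against 27.8% and 25.2% of all genes (1 lower without SH3 replicate 1). Their median log2 change was 0.67, and their summed level was 1482 to 1807 CPM in SC and 3065 to 3612 CPM in SH3. HLA-B stood at 107, 128 and 97.2 CPM in SC and at 641, 525 and 519.6 CPM in SH3 (2.34, SE 0.15, adjusted p = 1.05e-07). HLA-C rose from 92.2 ± 10.8 to 309 ± 23.1 CPM and HLA-F from 0.377 ± 0.185 to 3.57 ± 0.339 CPM. None of these groups overlapped. The light chain gene B2M, named after its value was seen, stood at 423, 390.1 and 364 CPM in SC and at 477, 412 and 433 CPM in SH3 (0.17, SE 0.11, adjusted p = 0.223). Its groups overlapped, and with TAP2 (0.21) and ERAP2 (-0.40) it made up the 3 genes not called. In footprints 8 of 16 were called higher and 0 lower, against 16.9% and 19.0% of all genes. HLA genes resemble one another, so the split of reads between them is uncertain.

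Some MHC class I promoters carry an interferon-stimulated response element. Its letters, taken as GAAA, any 2 bases and GAAA on either strand, stood in 7 of 13 windows of these genes (53.8%), in 21 of 34 windows of interferon-stimulated genes and in 3.65% of all windows. The next lines give the 180 bases before the start of HLA-B, HLA-C and HLA-F, the heavy chain genes with the largest rises, and of B2M, which was not called, with this element and CCAAT on either strand in capitals.
HLA-B (chr6:31357180-31357359, - strand): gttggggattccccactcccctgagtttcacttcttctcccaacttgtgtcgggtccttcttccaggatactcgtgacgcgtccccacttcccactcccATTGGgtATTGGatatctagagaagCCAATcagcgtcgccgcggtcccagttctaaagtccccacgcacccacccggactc
HLA-C (chr6:31272093-31272272, - strand): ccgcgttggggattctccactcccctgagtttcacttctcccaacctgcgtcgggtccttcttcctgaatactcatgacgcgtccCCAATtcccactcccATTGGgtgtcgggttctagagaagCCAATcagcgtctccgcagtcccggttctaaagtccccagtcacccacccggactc
HLA-F (chr6:29723254-29723433, + strand): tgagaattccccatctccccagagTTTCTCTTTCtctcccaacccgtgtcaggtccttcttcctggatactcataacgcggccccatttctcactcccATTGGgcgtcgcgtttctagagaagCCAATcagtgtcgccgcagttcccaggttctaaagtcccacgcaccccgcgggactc
B2M (chr15:44711337-44711516, + strand): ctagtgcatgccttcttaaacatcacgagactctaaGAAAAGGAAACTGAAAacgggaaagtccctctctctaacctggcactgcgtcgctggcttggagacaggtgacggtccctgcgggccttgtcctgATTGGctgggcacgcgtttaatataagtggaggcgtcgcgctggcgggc
CCAAT stood in all 4 stretches. The exact letters searched for the interferon element stood in those of HLA-F and B2M, with overlapping matches in B2M. Looser forms of the element were not searched, so a stretch without these letters is not shown to lack it. Of the 298 tested genes with these letters, 31.2% were called higher and 23.5% lower, against 28.3% and 24.9% of all tested genes with a window.

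Interferon-stimulated genes were called higher in 7 of 41 and lower in 14, against 27.8% and 25.2% of all genes, with a median of -0.21. The antiviral enzyme RSAD2 rose by 1.87 on the log2 scale, and the factors IRF1 and IRF7 by 1.26 and 1.06. IFIT1, an antiviral RNA-binding protein, stood at 112, 111 and 96.8 CPM in SC and at 37.3, 19.3 and 37.6 CPM in SH3 (-1.76, SE 0.23, adjusted p = 2.62e-05). HERC5, the ligase for ISG15, fell from 61.5 ± 4.13 to 24.05 ± 4.45 CPM, and IFITM1, which blocks viral entry, from 13.4 ± 1.78 to 5.65 ± 1.19 CPM. SH3 minus SH2 was -0.97 for IFIT1, -0.91 for HERC5 and 1.54 for IFITM1 (adjusted p = 0.00387, 0.000185 and 4.86e-05).

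Of 28 NF-kB and inflammatory genes, 10 were called higher and 4 lower, against 27.8% and 25.2% of all genes. In the test between hairpins, 11 were called lower in SH3 than in SH2, against 18.9% of all genes. RELB, a subunit of the factor, stood at 48.2, 36.1 and 33.1 CPM in SC and at 149, 159 and 136 CPM in SH3 (1.92, SE 0.13, adjusted p = 1.67e-07). The feedback targets BIRC3 and NFKBIE rose by 1.66 and 1.25, while the cytokine IL11 fell by 1.57 and NFKBIZ by 1.12.

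Extracellular matrix genes were called higher in 17 of 33 and lower in 5 (3 lower without SH3 replicate 2), with a median of 0.55. Over all genes, 27.8% were called higher and 25.2% lower. COL6A1, a chain of collagen VI, stood at 54.5, 53.9 and 38.4 CPM in SC and at 169, 216 and 198 CPM in SH3 (1.99, SE 0.15, adjusted p = 3.82e-07). Its groups did not overlap. COL12A1, another collagen, fell from 59.7 ± 9.80 to 27.1 ± 5.51 CPM. Of 13 integrin subunits, the receptors for matrix, 7 were called higher and 1, ITGB5, lower (-0.47), and 6 were called lower in SH3 than in SH2, against 18.9% of all genes. ITGA3, a laminin receptor subunit, stood at 442, 482 and 418 CPM in SC and at 1118, 1133 and 1088 CPM in SH3 (1.32, SE 0.09, adjusted p = 2.65e-07). ITGA5, of the fibronectin receptor, rose from 165 ± 51.4 to 381 ± 77.1 CPM. Of 22 matrix proteases and plasminogen genes, 10 were higher and 5 lower (3 lower without SC replicate 1), among them the lysosomal protease CTSD, which rose from 115 ± 17.1 to 274 ± 8.19 CPM.

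Of 14 genes of EGFR and MET signalling, 8 were called higher and 1 lower (2 lower without SC replicate 2). The shares of all genes were 27.8% and 25.2%. The median of the 14 was 0.75. The receptor gene EGFR stood at 193, 225 and 174 CPM in SC and at 618, 646 and 581 CPM in SH3 (1.64, SE 0.10, adjusted p = 1.05e-07). Its groups did not overlap. The ligand genes EREG and AREG rose from 6.39 ± 2.23 to 28.9 ± 5.37 CPM and from 21.3 ± 5.56 to 64.8 ± 4.32 CPM, and the ligand EGF fell from 1.42 ± 0.484 to 0.371 ± 0.310 CPM. SH3 minus SH2 was -0.57 for EGFR and -1.20 for AREG (adjusted p = 0.000652 and 2.99e-05).

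Of 26 RAS-ERK feedback and immediate-early genes, 11 were called higher and 1, the ETS factor ETV5, lower (-0.67; 2 lower without SC replicate 2). DUSP5, a phosphatase of nuclear ERK, stood at 49.9, 63.2 and 50.9 CPM in SC and at 262, 238 and 256 CPM in SH3 (2.20, SE 0.12, adjusted p = 4.88e-08). The transcription factor KLF4 rose from 48.1 ± 1.72 to 149 ± 6.21 CPM. Of 23 genes of the TGF-beta pathway, 10 were higher and 2 lower (1 lower without SC replicate 1, SH3 replicate 2 or SH3 replicate 3). The shares of all genes were 27.8% and 25.2%. The inhibitors BAMBI and SMAD7 rose by 1.59 and 1.30 and the ligand BMP4 by 1.04. INHBA, an activin subunit, was lower by 0.94, with overlapping groups, and was not called with DESeq2 or without SH3 replicate 2, SH3 replicate 3 or SC replicate 1 (for the last, -0.39, adjusted p = 0.232).

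Stress genes were also counted, against 27.8% of all genes called higher and 25.2% lower. Of 20 genes of the unfolded protein response, 12 were called higher and 3 lower (6 higher without SH3 replicate 2). ERN1, a stress sensor of the endoplasmic reticulum, rose from 23.4 ± 4.12 to 64.5 ± 3.55 CPM, and EDEM1, of glycoprotein degradation, fell from 130.3 ± 10.9 to 52.1 ± 3.46 CPM. Of 24 genes of the ATF4 response to amino acid and other stress, 8 were higher and 9 lower: ATF3 rose by 1.28, and SLC7A11, a cystine transporter, fell from 40.3 ± 4.03 to 13.7 ± 1.89 CPM. MDA-MB-231 carries mutant p53, and of 23 p53 target genes 10 were higher and 7 lower (6 higher without SH3 replicate 1, 5 without SH3 replicate 3). SESN2, an inhibitor of mTORC1, rose from 16.7 ± 3.76 to 57.3 ± 4.80 CPM, and the death receptor gene TNFRSF10B fell from 121 ± 14.2 to 47.9 ± 3.30 CPM.

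Lysosome and autophagy genes were called higher in 18 of 33 (11 without SH3 replicate 1). They were called lower in 5 (2 without SC replicate 1, SH3 replicate 2 or SH3 replicate 3). The shares of all genes were 27.8% higher and 25.2% lower. BECN1, of the lipid kinase complex that starts autophagy, stood at 120.2, 110.2 and 110.0 CPM in SC and at 26.3, 31.04 and 28.2 CPM in SH3 (-1.99, SE 0.10, adjusted p = 2.43e-08). Its groups did not overlap. In SH2, BECN1 changed by -0.09 (adjusted p = 0.401), and SH3 minus SH2 was -1.90 (adjusted p = 3.83e-08).

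A share of the SH3 changes was not found in SH2. The SH2 and SH3 changes are set against one set of SC libraries and share these controls. Of the 6732 genes called in SH3, 4815 were called in the same direction in SH2, and 1440 of these differed between the hairpins. A set of 1277 genes (10.0% of those tested) was called in SH3 against SC and against SH2 but not in the same direction in SH2, and 244 of these were called in the opposite direction there. The genes below were taken from this set for their difference, so their values are a description.

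SLC25A24, the mitochondrial ATP and phosphate carrier named above, stood at 138, 165 and 161 CPM in SC, at 156, 148 and 146 CPM in SH2 and at 16.2, 21.6 and 20.7 CPM in SH3. TMEM30A, a subunit of lipid flippases, stood at 65.1, 84.5 and 68.6 CPM in SC, at 81.6, 104 and 74.7 CPM in SH2 and at 10.9, 13.5 and 10.996 CPM in SH3. In both genes SH2 overlapped SC and SH3 lay below both. The cytokine gene IL1B stood at 16.1, 18.2 and 10.5 CPM in SC, at 40.1, 49.3 and 29.4 CPM in SH2 and at 7.68, 3.94 and 3.64 CPM in SH3, so that SH2 lay above SC and SH3 below it. TNFRSF11B, the decoy receptor osteoprotegerin, stood at 13.4, 8.90 and 8.85 CPM in SC, at 19.2, 13.6 and 13.9 CPM in SH2 and at 2.44, 2.56 and 2.34 CPM in SH3. MMP1, the interstitial collagenase, stood at 967, 162 and 212 CPM in SC, at 528, 541 and 347 CPM in SH2 and at 91.4, 52.1 and 46.4 CPM in SH3. SC replicate 1 was the highest of these libraries for MMP1, and the SH3 change was -2.82 with it and -1.58 without it.

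In the other direction, PAIP2, a repressor of poly(A)-binding protein, stood at 63.96, 82.5 and 73.997 CPM in SC, at 17.96, 24.98 and 17.1 CPM in SH2 and at 108, 97.1 and 100.3 CPM in SH3. KLHL12, an adaptor of a ubiquitin ligase, stood at 27.3, 40.7 and 35.4 CPM in SC, at 14.7, 19.002 and 16.8 CPM in SH2 and at 73.8, 75.2 and 80.3 CPM in SH3. Both lay lower in SH2 and higher in SH3 than in any SC library. MGAM, an intestinal glucosidase, and ZNF354A, a zinc finger protein, changed by 1.90 and 0.80 in SH3 and by -0.56 and -1.50 in SH2. SP140, a nuclear body protein, changed by 0.62 in SH3 and -1.62 in SH2, and its SH3 change was not called without SH3 replicate 1 (0.40) or SC replicate 3 (0.53). Of these 10 genes, 9 were tested in footprints and 7 were called there in the direction of the RNA.

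**Figure D5:**
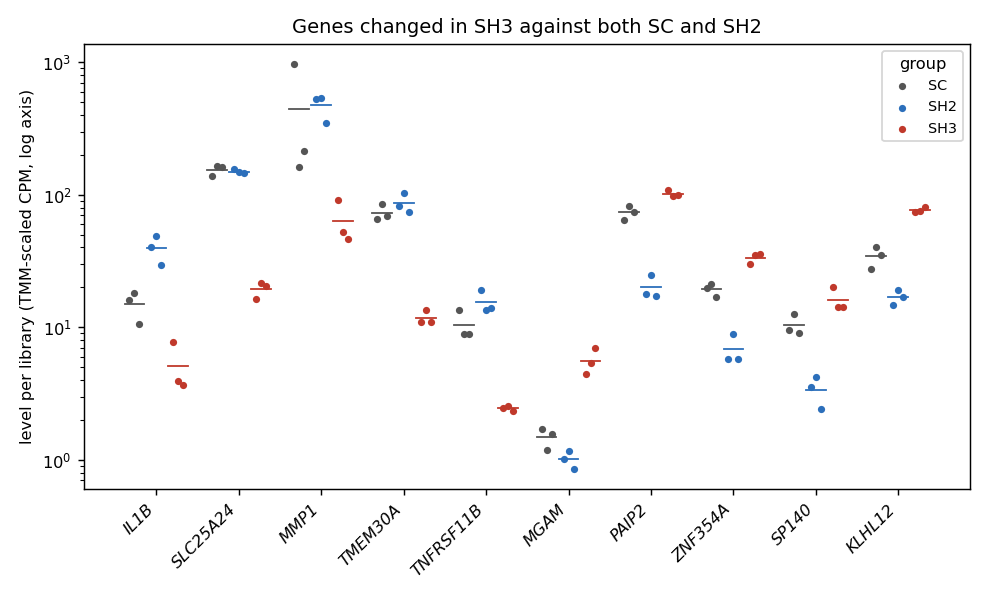
Level of 10 genes in each library of SC, SH2 and SH3 (TMM-scaled CPM, log axis); each point is a library and each line a group mean. SLC25A24 and TMEM30A lie near SC in SH2 and far below it in SH3 (16.2 to 21.6 and 10.9 to 13.5 CPM), and PAIP2 and KLHL12 lie below SC in SH2 and above it in SH3.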

How the data were processed

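Cytoplasmic input RNA and ribosome footprints of the same lysates were sequenced, with 3 libraries per group. Per the submitters' processing notes, Bowtie 1.2.2 and DESeq2 were used; the counting tool, its treatment of reads with several matches and the annotation were not given in the sources used here. The authors deposited 1 table of 17017 genes with raw read counts per library, which were used here. The authors' 18 per-sample columns of normalized signal and 18 comparison columns (log2 fold changes and p-values, deposited in the same table) were not used.

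Counts were fitted with edgeR 4.0.16 (R 4.3.3): filterByExpr, TMM factors and the two-sided quasi-likelihood test, 1 fit of the 9 input libraries of SC, SH2 and SH3 and 1 of the 9 footprint libraries, with Benjamini-Hochberg adjustment over all genes tested. The standard error is the log2 change divided by the square root of F. The test was checked on simulated counts. Library totals were 23469830 to 26541640 counts, and their number limits the precision of low genes.

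Named genes were FBL, the 12 highest and 12 lowest changes with at least 5 CPM, and the 6 largest CPM differences each way. Both of these sets were taken only from called genes with no overlap. Up to 3 called genes each way in each list and the 5 largest differences from SH2 each way were also named. Others are named as chosen after their values were seen or as members with a special role, and some genes that the rule names are not reported here. Members and lists were chosen with earlier results of these data known. Of 1040 list entries, 1012 were in the table and 950 were tested. Promoter sequences were taken from RefSeq (GRCh38.p14), matched by symbol. Alternatives were other scalings, filters, DESeq2 1.42.0, a replicate block, stricter thresholds and leaving out each library.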

Additional observations from a re-analysis of the deposited data

How the results depend on the processing

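The count of 6732 genes called between SH3 and SC was 6683 with DESeq2 size factors, 6938 with plain totals, 6768 without a filter on low counts, 6544 with a stricter filter, 6737 with DESeq2 and 5661 to 6415 when 1 library was left out. With a log2 change of at least 1 also required, it was 1623. Between SH3 and SH2 it was 4993, then 955 with that fold and 3726 to 5080 with 1 library left out. In footprints it was 3719, then 1356 and 2645 to 3771. Plain totals moved the median of all genes from 0.03 to 0.12 and the share of called genes that were higher from 52.4% to 61.5%. That share was 49.3% with DESeq2 size factors and with DESeq2, 49.1% with TMM without the 10 most abundant genes, 48.6% with only the groups compared, and 48.2% to 48.4% without any 1 SH3 library. The FBL change ranged from -6.98 to -6.71 and was called under every alternative. Of 215 other named genes under 14 alternatives, 93 of 3005 values lost the call, in 22 genes, and 0 changed sign.

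The labels do not say whether same-numbered SC and SH3 libraries belong together. The correlations of their deviations were 0.230, -0.0834 and 0.229, against -0.297 to 0.148 for pairs of unlike number. Whether they share an origin was not tested. With the replicate block 7396 genes were called between SH3 and SC, 5780 between SH3 and SH2 and 4269 in footprints, and FBL changed by -6.82. Each of these counts was higher than without the block. The 3 libraries a group limit what small changes can be seen.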

Other observations

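Further gene groups gave mixed counts, to be read against 27.8% of all genes called higher and 25.2% lower. Of 29 translation initiation factors 13 were called higher and 6 lower. EIF5, which releases the start-codon complex, rose from 308 ± 3.89 to 573 ± 54.8 CPM. EIF4EBP1, a repressor of the cap-binding factor EIF4E, fell from 69.7 ± 6.56 to 43.7 ± 1.53 CPM. Of 20 cytosolic tRNA synthetases 8 were higher and 1, YARS1, lower (0 lower without SC replicate 3), with WARS1 up by 0.59 on the log2 scale. Of 10 complement genes 5 were higher and 2 lower, with CFB up by 1.18. In the aryl hydrocarbon receptor pathway 4 of 8 were higher and 2 lower (1 lower without SC replicate 2, SC replicate 3, SH3 replicate 2 or SH3 replicate 3), and its repressor AHRR rose from 0.351 ± 0.0315 to 1.43 ± 0.138 CPM. Metallothioneins and zinc response genes were lower in 6 of 7, MT2A falling from 675 ± 192 to 319 ± 37.2 CPM.

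The same shares of all genes, 27.8% higher and 25.2% lower, apply to the next groups. Of 24 NRF2 pathway genes 4 were higher and 10 lower, and ME1, the malic enzyme, fell by 0.99. Of 23 epithelial and mesenchymal markers 3 were higher and 8 lower; the cadherin CDH2 fell by 1.75, and by 1.01 without SC replicate 1. In the YAP/TAZ pathway 5 of 23 were higher and 7 lower (3 higher without SC replicate 3, 3 lower with plain totals): NT5E, a surface nucleotidase, rose from 325 ± 35.4 to 641 ± 66.9 CPM, and the factor TEAD1 fell from 145 ± 10.3 to 71.9 ± 1.83 CPM. Of 31 proteasome genes 5 were higher and 7 lower, counts that ranged from 2 to 6 and from 3 to 9 over the alternatives, and the core subunit PSMA1 fell from 48.4 ± 5.80 to 27.2 ± 0.990 CPM. Of 22 cytosolic chaperones 2 were higher and 8 lower.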
